A study of Mus musculus with 8 samples.

Results

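Ly6d and 8 markers of the bile duct epithelium, of liver progenitor cells or of the fetal liver were followed across the livers of mice given adenoviruses: Krt19, Krt7, Epcam, Sox9, Spp1, Cd24a, Prom1 and Afp. These 9 genes were taken by symbol from the 24062 gene entries of the RNA-seq count tables. Ly6d was chosen because it was far lower after both hairpins, so its values are given as a description with no test. The other 8 were chosen by name as markers, with earlier results of these data known.

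The mice were lean, wild-type C57BL/6 animals fed ad libitum and injected with 0.1 OD of adenovirus, and livers were taken 1 week later after 6 h without food. The shDnajb9 group received a hairpin virus against Dnajb9 and the lacZ1 group was its control, both at 3 months of age. The shRictor group received a hairpin virus against Rictor and the lacZ2 group was its control, both at 4 months. Each of the 4 groups has 2 libraries of total RNA cleaned of ribosomal RNA, and the labels do not say that these came from separate animals, so a p-value measures the spread between these libraries, which may be technical. What the lacZ virus encodes beyond its name, and which liver cells the viruses reached, is not given in the sources used here. Dnajb9 encodes an ER-resident J-domain co-chaperone and Rictor a core subunit of mTOR complex 2.

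Libraries held 6426164 to 11383532 counts assigned to genes. The shDnajb9 libraries lost 41.3% and 42.0% of their reads as not unique, against 22.9% and 24.9% in the lacZ1 libraries, and the shRictor libraries lost 32.7% and 26.7%, against 24.6% and 24.2% in the lacZ2 libraries. The targeted genes gave 22.0 and 20.3 CPM of Dnajb9 in shDnajb9 livers, against 30.6 and 38.0 CPM in lacZ1 livers, and 40.1 and 42.0 CPM of Rictor in shRictor livers, against 52.3 and 65.2 CPM in lacZ2 livers, with no overlap in either pair. CPM is a gene's count per 1e6 counts of its library, after scaling by edgeR's trimmed mean of M-values (TMM). A gene counts as called where edgeR's quasi-likelihood test gave a p under 0.05 after Benjamini-Hochberg adjustment over all 13767 genes that passed the count filter. Ly6d and 7 of the 8 markers passed it, and Krt7 did not. Neither target was called: Dnajb9 had a log2 fold change of -0.70 with shDnajb9 (adjusted p = 0.056) and Rictor -0.52 with shRictor (0.231). Scaled by total counts alone, Dnajb9 passed (adjusted p = 0.0111) and Rictor did not (0.0654). Rictor was also lower without overlap in shDnajb9 livers, at 33.3 and 63.4 CPM against 65.4 and 68.8 CPM in lacZ1 livers. In these bulk livers fewer cells of a type and less RNA per cell cannot be told apart.

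Bile duct cells, the cholangiocytes, line the intrahepatic ducts and carry the keratins Krt19 and Krt7, the adhesion molecule Epcam, the transcription factor Sox9 and the secreted protein osteopontin, encoded by Spp1. After injury, small duct-like or progenitor cells with these markers and with Cd24a and Prom1 spread from the portal tract in what is called the ductular reaction, and hepatocytes can themselves take up part of this program. Afp is the fetal counterpart of serum albumin and is silenced in the liver after birth. Ly6d encodes a small GPI-anchored surface protein of the Ly6/uPAR family that is known from keratinocytes and from lymphoid progenitors committed to the B lineage.

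Of these genes, RefSeq's promoter table for GRCm38.p6, which holds the 250 bases before and 50 after a transcript's start, had windows for 5 of the 9 members (Krt7, Epcam, Spp1, Prom1 and Afp). The first windows of Prom1 and Spp1 are shown because both genes were lower in all 4 hairpin libraries than in all 4 lacZ libraries, and that of Epcam because it was not. Capitals mark matches, on either strand, to 4 short motifs: a TATA box (TATAAA), an AP-1 site (TGANTCA), a TEAD site (GGAATG) and an RBPJ core (TGGGAA).
Prom1, chr5:44101687-44101986, minus strand: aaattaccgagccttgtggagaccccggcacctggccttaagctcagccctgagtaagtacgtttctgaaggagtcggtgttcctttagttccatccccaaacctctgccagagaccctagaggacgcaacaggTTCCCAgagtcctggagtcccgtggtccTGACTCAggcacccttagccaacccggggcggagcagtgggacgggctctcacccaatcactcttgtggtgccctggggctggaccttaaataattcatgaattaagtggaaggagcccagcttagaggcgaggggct
Spp1, chr5:104434861-104435160, plus strand: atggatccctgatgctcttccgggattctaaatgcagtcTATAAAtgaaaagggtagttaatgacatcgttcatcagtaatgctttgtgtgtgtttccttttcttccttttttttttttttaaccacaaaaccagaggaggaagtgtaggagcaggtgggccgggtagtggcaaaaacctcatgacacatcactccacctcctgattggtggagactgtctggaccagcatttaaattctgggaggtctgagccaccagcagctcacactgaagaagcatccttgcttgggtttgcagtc
Epcam, chr17:87635729-87636028, plus strand: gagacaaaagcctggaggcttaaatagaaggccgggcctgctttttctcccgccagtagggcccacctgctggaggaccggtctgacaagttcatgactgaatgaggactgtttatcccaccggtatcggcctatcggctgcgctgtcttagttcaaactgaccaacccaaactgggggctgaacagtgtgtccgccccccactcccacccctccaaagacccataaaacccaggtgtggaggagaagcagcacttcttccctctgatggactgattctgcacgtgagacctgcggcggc
In the Prom1 window the AP-1 letters begin at position -88 from the start and the RBPJ letters, read on the other strand, at -116. In the Spp1 window the TATA letters begin at -211. The Epcam window held none of the 4. Of the first windows not shown, that of Afp held the TATA letters at -7 and that of Krt7 held none of the 4. For both of these genes the hairpin and lacZ libraries overlapped. Among 32851 promoter windows of the same length, 7.81% held the AP-1 letters, 25.6% the RBPJ letters, 13.6% the TATA letters and 14.7% the TEAD letters, so such matches are common, and a match is a description, not a site.

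Ly6d lies on chromosome 15 (GRCm38, GENCODE M21, 74762056 to 74763620, minus strand, 3 exons). It had 9.22 and 7.65 CPM in the shDnajb9 livers, from 44 and 67 counts, against 200.3 and 199 CPM in the lacZ1 livers, from 2260 and 1671 counts. It had 6.47 and 8.61 CPM in the shRictor livers, from 55 and 88 counts, against 423 and 197 CPM in the lacZ2 livers, from 3637 and 2332 counts. All 4 hairpin libraries were thus far below all 4 lacZ libraries, and lacZ2 replicate 1 stood apart above its partner. The fitted level was 23.8-fold lower with shDnajb9 (log2 fold change -4.57, SE 0.39) and 40.9-fold lower with shRictor (-5.35, SE 0.40). Without lacZ2 replicate 1 the shRictor value was -4.70. Per length, in RPKM (CPM per kilobase of exon), Ly6d averaged 11.3 in shDnajb9 livers, below Spp1 at 22.3, against 269 in lacZ1 livers, above Spp1 at 51.1. It averaged 10.1 RPKM in shRictor livers, below Spp1 at 25.8, against 417 RPKM in lacZ2 livers, above Spp1 at 47.0. Ly6d was thus the most abundant member per length in the lacZ livers and second to Spp1 in the hairpin livers.

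**Figure D1:**
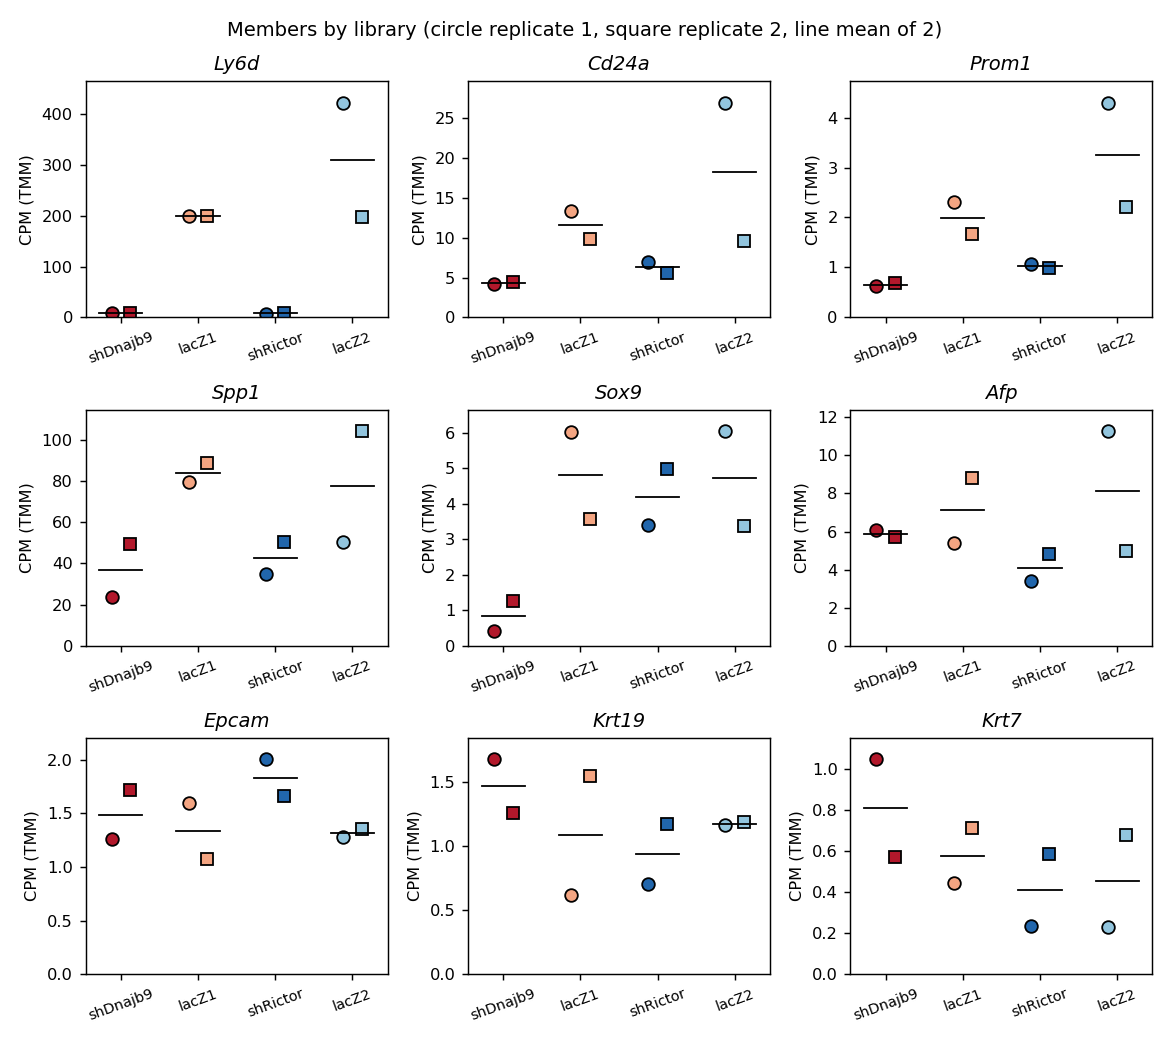
CPM after TMM scaling (vertical axis, starting at 0 and scaled for each gene) of the 9 members in each library, by group along the horizontal axis. Circles are replicate 1, squares replicate 2 and lines the mean of the 2; Ly6d, Cd24a, Prom1 and Spp1 lie lower in all 4 hairpin libraries than in all 4 lacZ libraries, Sox9 is low in the shDnajb9 livers, and the ranges of Krt19, Krt7, Epcam and Afp in hairpin and lacZ libraries overlap.

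No marker was called higher with either hairpin. With shDnajb9, 3 of the 7 tested markers were called lower (Sox9, Spp1 and Cd24a) and the other 4 were not called, with a median log2 fold change of -1.18 against -0.05 over all tested genes. With shRictor, 2 of the 7 were called lower (Cd24a and Prom1) and 5 were not called, with a median of -0.87 against -0.02. Prom1 reached the filter's cutoff of 1.06 CPM, taken before TMM scaling, in the lacZ libraries alone, so it had to differ to be tested, and its call adds no support to this count. Over all tested genes shDnajb9 gave 11.6% called higher and 12.6% called lower, and shRictor 7.31% higher and 10.9% lower, so a call in the lower direction was common among all genes. The balance depends on the scaling: with total counts alone, 610 genes were called higher and 3354 lower with shDnajb9 (1597 and 1728 with TMM), and 436 higher and 2810 lower with shRictor (1006 and 1502 with TMM). Spp1, Cd24a and Prom1 were the 3 of 8 markers, beside Ly6d, for which every hairpin library was below every lacZ library, a pattern seen in 17.9% of the tested genes. Prom1 adds no support to this count either, since it passed the filter only through lacZ libraries. Krt7, among the 8 markers, was not among the tested genes that the 17.9% refers to.

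Among the surface markers, Cd24a encodes a small, heavily glycosylated GPI-anchored protein used to sort duct and progenitor cells. It had 4.19 and 4.45 CPM in shDnajb9 livers, against 13.4 and 9.90 CPM in lacZ1 livers, and 6.95 and 5.58 CPM in shRictor livers, against 27.0 and 9.56 CPM in lacZ2 livers. The groups did not overlap in either pair, and lacZ2 replicate 1 was again the highest library. Cd24a was 2.69-fold lower with shDnajb9 (log2 fold change -1.43, SE 0.44, adjusted p = 0.0348) and 2.90-fold lower with shRictor (-1.53, SE 0.41, adjusted p = 0.0212). The shDnajb9 call was lost without any 1 of its 4 libraries, with adjusted p from 0.0507 to 0.201. The shRictor call was lost without shRictor replicate 1 (0.0677), without shRictor replicate 2 (0.123) and without lacZ2 replicate 1, where the log2 fold change was -0.62 (adjusted p = 0.302).

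Prom1 encodes prominin-1 (CD133), a pentaspan glycoprotein of membrane protrusions that marks progenitor cells. It had 0.629 and 0.685 CPM in shDnajb9 livers, from 3 and 6 counts, against 2.31 and 1.67 CPM in lacZ1 livers, from 26 and 14 counts. It had 1.06 and 0.978 CPM in shRictor livers, from 9 and 10 counts, against 4.30 and 2.20 CPM in lacZ2 livers, from 37 and 26 counts. The groups did not overlap, but the gene passed the filter only through its lacZ libraries, so a gene this low in the hairpin libraries could be tested only if it differed. With that limit, the log2 fold change was -1.64 with shRictor (SE 0.48, adjusted p = 0.0315) and -1.58 with shDnajb9 (SE 0.58, adjusted p = 0.0622), and the difference between the hairpin effects was -0.06 with a 95% interval from -1.96 to 1.84. The shRictor call was lost with DESeq2 (adjusted p = 0.0624), without shRictor replicate 1 (0.126), without shRictor replicate 2 (0.157) and without lacZ2 replicate 1 (0.234), while shDnajb9 passed with total-count scaling (0.0353) or no filter (0.0447).

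Epcam, the homophilic adhesion molecule of epithelial cells, had 1.26 and 1.71 CPM in shDnajb9 livers, against 1.60 and 1.07 CPM in lacZ1 livers, and 2.00 and 1.66 CPM in shRictor livers, against 1.28 and 1.35 CPM in lacZ2 livers. The first pair overlapped and in the second both shRictor libraries were above both lacZ2 libraries. Neither contrast passed the test, with a log2 fold change of 0.17 with shDnajb9 (95% interval from -0.88 to 1.22, adjusted p = 0.820) and 0.46 with shRictor (from -0.51 to 1.44, adjusted p = 0.530). Each library had 6 to 18 Epcam counts, a depth at which such intervals leave room for a change of over 2-fold.

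Sox9, a transcription factor of duct development and of duct-like hepatocytes, was the member with the widest gap between the hairpin effects. It had 0.419 and 1.26 CPM in shDnajb9 livers, from 2 and 11 counts, against 6.03 and 3.58 CPM in lacZ1 livers, from 68 and 30 counts. It had 3.41 and 4.99 CPM in shRictor livers, from 29 and 51 counts, against 6.05 and 3.39 CPM in lacZ2 livers, from 52 and 40 counts. The shDnajb9 libraries were below all other libraries, whereas the shRictor and lacZ2 libraries overlapped. Sox9 was 5.14-fold lower with shDnajb9 (log2 fold change -2.36, SE 0.54, adjusted p = 0.00826), and this call was lost without shDnajb9 replicate 1 (-1.94, adjusted p = 0.0558) or without lacZ1 replicate 1 (-1.94, adjusted p = 0.0842), while the value was -3.49 without shDnajb9 replicate 2 (adjusted p = 0.0104). With shRictor the log2 fold change was -0.14 (95% interval from -1.04 to 0.77, adjusted p = 0.861). The difference between the effects, shRictor minus shDnajb9, was 2.22 (SE 0.69) with an unadjusted p of 0.00669 and an adjusted p of 0.394 in edgeR's test, so it did not pass over all genes. It passed with no count filter (adjusted p = 0.0168), and leaving out 1 library moved it to between 1.81 and 3.36, the highest without shDnajb9 replicate 2, with none of these fits past the test. Ages differ between the pairs, so a difference between the hairpin effects and one between ages cannot be told apart.

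Over all tested genes this difference was called for 0.00726%, that is for Slc17a8 alone, and none of the 7 tested markers was called, with adjusted p from 0.394 to 0.988. Between the control groups, lacZ2 minus lacZ1, 0% of genes were called by edgeR (169 genes at an unadjusted p under 0.05, and 1 gene by DESeq2), and the adjusted p of every tested marker was 1.0. The markers' log2 differences between these controls ran from -0.12 for Spp1 to 0.67 for Prom1.

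**Figure D2:**
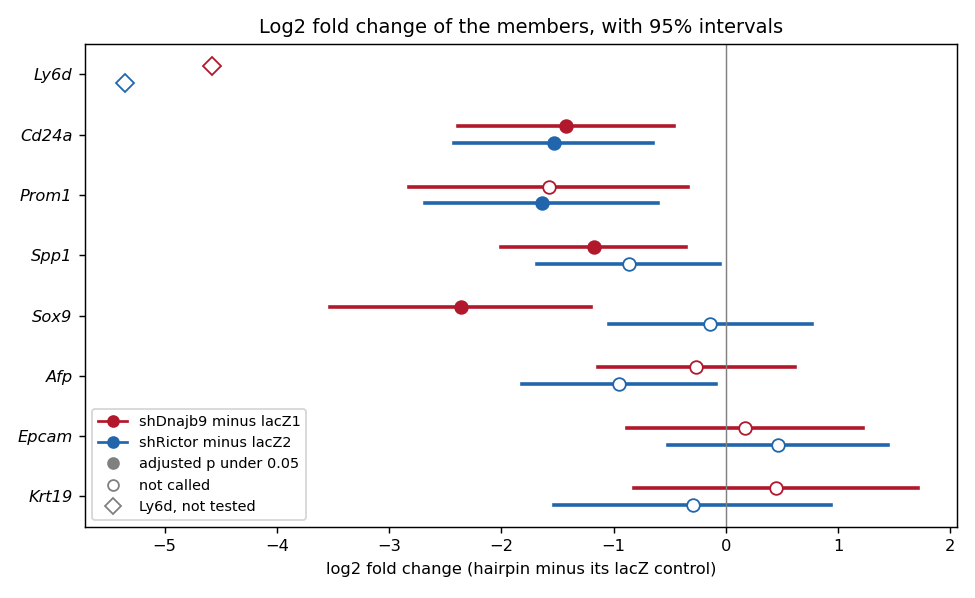
Log2 fold change (horizontal axis, hairpin minus its lacZ control) of the members that passed the count filter, with shDnajb9 above shRictor for each gene. Lines are 95% intervals from the fit, filled circles have an adjusted p under 0.05, and open diamonds are Ly6d, which was not tested; the Sox9 points are the farthest apart, at -2.36 and -0.14.

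Among the secreted members, Spp1 encodes osteopontin, a matrix and cytokine-like phosphoprotein made by duct cells and by macrophages. It had 23.9 and 49.7 CPM in shDnajb9 livers, against 79.5 and 88.8 CPM in lacZ1 livers, and 34.7 and 50.4 CPM in shRictor livers, against 50.6 and 104 CPM in lacZ2 livers. The first pair was apart, and in the second the highest shRictor library lay just below the lowest lacZ2 library. The log2 fold change was -1.18 with shDnajb9 (SE 0.38, adjusted p = 0.0398) and -0.87 with shRictor (SE 0.37, adjusted p = 0.131). The shDnajb9 call was lost without shDnajb9 replicate 1 (-0.76, adjusted p = 0.267), without lacZ1 replicate 1 (-1.28, 0.151) and without lacZ1 replicate 2 (-1.10, 0.143). The shRictor value was -0.23 without lacZ2 replicate 2 (adjusted p = 0.766) and -1.29 without lacZ2 replicate 1 (0.0686). It passed with no count filter (-0.87, adjusted p = 0.0144) and without shDnajb9 replicate 1 and lacZ2 replicate 1 together (-1.29, 0.0099). Spp1 shares 11.6% of its exonic 50-base stretches with other transcripts, and the predicted gene Gm42793 overlaps it on the same strand.

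Some macrophage markers were also lower. Of 10 tested Kupffer cell and macrophage genes, 4 were called lower and none higher with shDnajb9, and 6 lower and none higher with shRictor, beside 12.6% and 10.9% of all genes called lower. Their summed level was 1013 and 1159 CPM in shDnajb9 livers, against 1283 and 1454 CPM in lacZ1 livers, and 697 and 840.4 CPM in shRictor livers, against 1297 and 1429 CPM in lacZ2 livers. Gpnmb, a glycoprotein of lipid- and injury-associated macrophages, had the smallest p of the list, with log2 fold changes of -3.74 with shDnajb9 and -3.51 with shRictor (adjusted p = 6.07e-05 and 9.8e-05). The next by p, Itgax, was -2.42 and -2.48, and its calls and those of Gpnmb held without any 1 library. Among the other called ones, Marco with shDnajb9 lost its call without any 1 library (adjusted p up to 0.261), Cd68 with shDnajb9 without any but shDnajb9 replicate 2 (up to 0.162) and with shRictor without either shRictor library (up to 0.0736), and Trem2 with shRictor without any but lacZ2 replicate 2 (up to 0.152). With total-count scaling 7 of the 10 were called lower with shDnajb9 and 6 with shRictor. Under it Clec4f was called in neither contrast (log2 fold change -0.06 with shDnajb9 and -0.34 with shRictor, adjusted p = 0.905 and 0.459). Vsig4 gave -1.21 with shDnajb9 (adjusted p = 0.0331) and 0.09 with shRictor (0.878), beside medians over all genes of -0.46 and -0.42. The part of the macrophage genes in the Spp1 values was not tested. Of 9 tested receptors of osteopontin, Itga5, the fibronectin receptor subunit, and Cd44, the hyaluronan receptor, were called lower in both contrasts, and with shDnajb9 Itga8 was higher (log2 fold change 0.90, adjusted p = 0.045). The lower calls stand beside 12.6% and 10.9% of all genes, and the single higher call is close to the 11.6% called higher with shDnajb9. Itga5 had log2 fold changes of -1.33 and -1.08 (adjusted p = 0.00255 with shDnajb9 and 0.00806 with shRictor), and Cd44 -0.94 and -0.95 (0.0282 and 0.031). The Itga5 call with shRictor was lost without shRictor replicate 1 or lacZ2 replicate 1, with adjusted p up to 0.0853. Cd44 lost its shDnajb9 call without 3 of the 4 libraries (all but shDnajb9 replicate 2) and its shRictor call without any 1 of them, with adjusted p up to 0.197 and 0.161. Itga8 lost its call without any 1 library (up to 0.341), and with total-count scaling 5 receptors were lower and none higher with shDnajb9, and 3 lower and none higher with shRictor.

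Afp had 6.08 and 5.71 CPM in shDnajb9 livers, against 5.41 and 8.82 CPM in lacZ1 livers, and 3.41 and 4.79 CPM in shRictor livers, against 11.3 and 4.99 CPM in lacZ2 livers. The first pair overlapped and in the second both shRictor libraries lay just below both lacZ2 libraries. The log2 fold change was -0.26 with shDnajb9 (95% interval from -1.14 to 0.61, adjusted p = 0.657) and -0.96 with shRictor (from -1.82 to -0.09, adjusted p = 0.120). The shRictor value passed with total-count scaling (adjusted p = 0.0441), with no filter (0.0258) and without lacZ2 replicate 2 (0.0291), and its log2 fold change was -0.27 without lacZ2 replicate 1. Of 8 regulators of Afp, among them the repressors Zbtb20 and Zhx2 and the activator Nr5a2, Cebpa alone was called: this hepatocyte factor was higher by 1.35 with shDnajb9 (adjusted p = 0.0183) and by 1.16 with shRictor (0.0393) on the log2 scale. A single higher call among 8 genes is close to the 11.6% of all tested genes called higher with shDnajb9, and stands beside 7.31% with shRictor. Cebpa had 954 and 507 CPM in shDnajb9 livers, against 270.1 and 305 CPM in lacZ1 livers, and 671 and 496 CPM in shRictor livers, against 269 and 252 CPM in lacZ2 livers. Its shDnajb9 call was lost without shDnajb9 replicate 1 or either lacZ1 library and its shRictor call without any 1 library and with total-count scaling.

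The keratins of duct cells were near the limit of detection. Krt19 had 1.68 and 1.26 CPM in shDnajb9 livers, against 0.621 and 1.55 CPM in lacZ1 livers, and 0.706 and 1.17 CPM in shRictor livers, against 1.16 and 1.19 CPM in lacZ2 livers, from 6 to 14 counts per library. The groups overlapped in both pairs. Its log2 fold change was 0.45 with shDnajb9 (95% interval from -0.82 to 1.71, adjusted p = 0.597) and -0.30 with shRictor (from -1.53 to 0.93, adjusted p = 0.770). Krt7 had 5 and 5 counts in shDnajb9 livers, against 5 and 6 in lacZ1 livers, and 2 and 6 counts in shRictor livers, against 2 and 8 in lacZ2 livers. In a fit with no filter its log2 fold change was 0.40 with shDnajb9 (adjusted p = 0.819) and -0.17 with shRictor (0.96). At this depth a change of the keratins within the Krt19 intervals was not detectable.

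Below Ly6d and Spp1, the members' mean levels per length in shDnajb9 livers ran from Afp (1.75 RPKM) over Cd24a (1.68), Krt19 (0.791), Epcam (0.677), Sox9 (0.203) and Krt7 (0.115) to Prom1 (0.0916 RPKM). In these livers the ranges of Afp and Cd24a overlapped, as did those of Krt19 and Epcam, of Sox9 and Krt7, and of Krt7 and Prom1. In lacZ1 livers the order was Cd24a (4.51 RPKM), Afp (2.11), Sox9 (1.16), Epcam (0.608), Krt19 (0.585), Prom1 (0.277) and Krt7 (0.0822 RPKM), with overlap between Epcam and Krt19 alone. Sox9 was thus below the duct keratin Krt19 in shDnajb9 livers and above it in lacZ1 livers. In shRictor livers the order was Cd24a (2.43 RPKM), Afp (1.22), Sox9 (1.02), Epcam (0.835), Krt19 (0.507), Prom1 (0.142) and Krt7 (0.0583 RPKM), with overlap between Afp and Sox9 and between Sox9 and Epcam. In lacZ2 livers it was Cd24a (7.08 RPKM), Afp (2.42), Sox9 (1.14), Krt19 (0.633), Epcam (0.600), Prom1 (0.453) and Krt7 (0.0645 RPKM), with overlap between Epcam and Prom1. The length used is that of all annotated exons together, 7049 bases for Krt7 against 1855 for Krt19, so the rank of Krt7 depends on that length.

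A further list of 22 duct epithelial genes held 18 that were tested. With shDnajb9, 4 were called lower and none higher (median log2 fold change -0.73), and with shRictor 7 were called lower and none higher (median -1.17). Of all genes, 12.6% were called lower with shDnajb9 and 10.9% with shRictor. Of the called genes, Elf3 in both contrasts, and Cldn7 and Ehf with shRictor, passed the count filter only through lacZ libraries. The same holds for Ggt1, Muc1 and Tspan8, which were not called. These genes had to differ to be tested, and both medians include them, which limits what the medians show. Elf3, an epithelial ETS factor, had log2 fold changes of -2.14 with shDnajb9 (adjusted p = 0.0154) and -2.36 with shRictor (0.00581), and St14, the membrane serine protease matriptase, -2.04 (0.0166) and -2.57 (0.00441). St14 had 2.52 and 1.26 CPM in shDnajb9 livers, against 10.1 and 4.29 CPM in lacZ1 livers, and 1.53 and 1.47 CPM in shRictor livers, against 12.1 and 6.01 CPM in lacZ2 livers, so the groups were apart in both pairs. Krt23 was called with shDnajb9 (-1.57, adjusted p = 0.00796). The tight junction protein Cldn7 (-3.07, 0.01) and Krt8 (-1.26, 0.0212), a keratin that hepatocytes also carry, were called with shRictor. The adhesion molecule Alcam was lower in both (-0.75, adjusted p = 0.037, and -0.81, adjusted p = 0.0318). Counts of Krt8 are uncertain, since 29.7% of its exonic 50-base stretches are shared with a pseudogene and an antisense gene. Genes more restricted to ducts were scarce: Cftr had 0 to 6 counts per library and Sctr 0 to 3. The Elf3 and St14 calls with shDnajb9 were lost without shDnajb9 replicate 2 or lacZ1 replicate 1 (adjusted p up to 0.138 and 0.192), that of Elf3 with shRictor without shRictor replicate 2 (0.0661), and that of Cldn7 without shRictor replicate 1 or lacZ2 replicate 1 (up to 0.128). Krt8 kept its call only without lacZ2 replicate 2 (up to 0.159), and Alcam lost the shRictor call without any 1 library (up to 0.201) and the shDnajb9 call without any but shDnajb9 replicate 2 (up to 0.199).

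A list of 14 further progenitor and oncofetal genes held 9 that were tested. With shDnajb9, 4 were called lower and none higher (median log2 fold change -1.62), and with shRictor 5 lower and none higher (median -1.12). H19 and Gpc3 among them, and Ncam1, which was not called, passed the count filter only through lacZ libraries. These genes had to differ to be tested, and both medians include them, which limits what the medians show. Of all genes, 12.6% were called lower with shDnajb9 and 10.9% with shRictor. Tnfrsf12a encodes Fn14, the receptor of the cytokine TWEAK, which drives the growth of liver progenitor cells. It had 7.76 and 4.45 CPM in shDnajb9 livers, against 38.5 and 52.7 CPM in lacZ1 livers, and 8.95 and 9.20 CPM in shRictor livers, against 87.3 and 44.8 CPM in lacZ2 livers. Both pairs were wide apart, and the log2 fold changes were -2.94 with shDnajb9 (SE 0.38, adjusted p = 0.000273) and -2.86 with shRictor (adjusted p = 0.000296). Igf2bp2, an RNA-binding protein of the fetal liver, was lower by similar amounts in both (-1.99, adjusted p = 0.00408, and -2.08, adjusted p = 0.0016). The calls of Tnfrsf12a and Igf2bp2 held without any 1 library.

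H19, an imprinted long noncoding RNA of the fetal liver, came from 8 and 10 counts in shDnajb9 livers, against 477 and 409 in lacZ1 livers, and from 8 and 10 counts in shRictor livers, against 4153 and 457 in lacZ2 livers. In lacZ2 replicate 1 it was thus far above every other library. Its log2 fold change was -5.06 with shDnajb9 (SE 1.12, adjusted p = 0.0127) and -8.06 with shRictor (adjusted p = 0.00185). The shDnajb9 call was lost without any 1 of its 4 libraries (adjusted p up to 0.131), and leaving out 1 library moved the shRictor value to between -8.94 and -5.31. Gpc3, an oncofetal heparan sulfate proteoglycan, was called with shRictor, with 0 and 2 counts in shRictor livers, against 48 and 16 in lacZ2 livers (adjusted p = 0.00469), and with shDnajb9 it had 1 and 2 counts, against 11 and 12 in lacZ1 livers (adjusted p = 0.119). Dlk1, Bex1 and Igf2bp1 had 0 or 1 count in every library, and Igf2 2 to 7 counts apart from 45 in lacZ2 replicate 1.

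Notch signalling, in which a ligand on one cell leads to release of the receptor's inner part in its neighbour to act with RBPJ, directs duct fate and acts upstream of Sox9. Of 16 tested Notch genes, 4 were called lower and 1 higher with shDnajb9 (median log2 fold change -0.53), and 2 lower and none higher with shRictor (median -0.23). The 4 lower calls with shDnajb9 stand beside 12.6% of all genes called lower. The shRictor count is close to the 10.9% of all genes called lower, and the single higher call below the 11.6% called higher with shDnajb9. With total-count scaling 7 were lower and none higher with shDnajb9, and 3 lower and none higher with shRictor. The receptor Notch1 had 40.5 and 67.0 CPM in shDnajb9 livers, against 278 and 154 CPM in lacZ1 livers, and 76.9 and 151 CPM in shRictor livers, against 195 and 154 CPM in lacZ2 livers. Both shRictor libraries were also below both lacZ2 libraries, the nearest by less than 3 CPM. Notch1 was called with shDnajb9 (-2.0, SE 0.40, adjusted p = 0.00408; up to 0.0474 without 1 library) and not with shRictor (-0.61, adjusted p = 0.299). Notch3, a receptor of mural cells, had log2 fold changes of -2.17 (adjusted p = 0.0104) and -1.59 (0.034), and each call was lost without either hairpin library or without replicate 1 of the lacZ group. Among ligands, Dll1 was lower with shDnajb9 (-1.24, adjusted p = 0.00939; 0.0994 without lacZ1 replicate 1) and Dll4, an endothelial ligand, higher (0.98, adjusted p = 0.0349), which was not called without shDnajb9 replicate 2 or either lacZ1 library (up to 0.176) or with total-count scaling. The duct ligand Jag1 gave -0.80 with shDnajb9 and -0.15 with shRictor, and the target Hes1 -0.89 and -0.87, none past the test with TMM. With total-count scaling Jag1 with shDnajb9 (adjusted p = 0.0444) and Hes1 in both (0.0227 and 0.0215) passed. Lfng, a glycosyltransferase that tunes the receptors, was called with shRictor (-0.77, adjusted p = 0.0397; up to 0.202 without 1 library).

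YAP and TAZ are coactivators that act through TEAD factors on duct and progenitor genes. Of 13 tested genes, 4 were called lower and 1 higher with shDnajb9 (median log2 fold change -0.17), and 2 lower and none higher with shRictor (median -0.04), so the medians were close to those over all genes. Of all tested genes, 12.6% were called lower and 11.6% higher with shDnajb9, and 10.9% lower with shRictor. The shRictor count and the single higher call are thus near the shares of all genes. The DNA-binding partners Tead2 and Tead1 had log2 fold changes of -1.73 and -1.50 with shDnajb9 (adjusted p = 0.00875 and 0.0156), and Ctgf, a target gene, had 1.06 (0.0215). Tead2 was also lower with shRictor (-1.88, adjusted p = 0.00387), as was the LIM protein Ajuba (-1.31, 0.00914), which gave -1.02 with shDnajb9 (0.0286). Leaving out lacZ1 replicate 1 lost each of these 4 shDnajb9 calls (adjusted p up to 0.0703 for Tead2, 0.115 for Tead1, 0.256 for Ctgf and 0.193 for Ajuba). Tead1 and Ajuba also lost theirs without shDnajb9 replicate 1, Ctgf without shDnajb9 replicate 2 and with total-count scaling, and the shRictor call of Ajuba was lost without shRictor replicate 1 or lacZ2 replicate 1.

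Of Ly6d's family, 28 of 31 listed relatives were in the tables, 16 had at least 10 counts in all and 11 were tested. With shDnajb9, 2 were called lower and 1 higher (median log2 fold change -0.21, with Ly6f at its bound), and with shRictor 3 lower and 1 higher (median -1.37). Of all tested genes, 12.6% were called lower and 11.6% higher with shDnajb9, and 10.9% and 7.31% with shRictor. The single higher calls are thus close to the shares of all genes. With total-count scaling 3 were lower and 1 higher with shDnajb9, and 6 lower and none higher with shRictor. Ly6f, Ly6c1 and Ly6i passed the count filter only through lacZ libraries, and Cd59b only through hairpin libraries. These relatives had to differ to be tested, and the medians include them. Lynx1, a modulator of nicotinic receptors in neurons, had 1.89 and 1.94 CPM in shDnajb9 livers, against 9.22 and 6.92 CPM in lacZ1 livers, and 2.47 and 2.25 CPM in shRictor livers, against 10.9 and 10.3 CPM in lacZ2 livers. It was clearly apart in both pairs, with log2 fold changes of -2.07 (adjusted p = 0.00114) and -2.17 (0.000531) that held without any 1 library. Ly6f had 0 and 0 counts in shDnajb9 livers, against 20 and 29 in lacZ1 livers, which with a floor of 3 counts over the group is at least 11.2-fold lower (adjusted p = 0.00191), and 3 and 1 counts in shRictor livers, against 25 and 30 in lacZ2 livers (adjusted p = 0.00419; 0.0502 without shRictor replicate 2).

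Other relatives went another way. Cd59a, an inhibitor of the complement membrane attack complex, had 71.1 and 44.4 CPM in shDnajb9 livers, against 14.1 and 18.1 CPM in lacZ1 livers, and 47.2 and 31.3 CPM in shRictor livers, against 19.9 and 20.5 CPM in lacZ2 livers. It was higher in both hairpin groups, with log2 fold changes of 1.84 (adjusted p = 0.00111) and 0.96 (0.0351), and the shRictor call was lost without shRictor replicate 1 or either lacZ2 library (up to 0.263) and with total-count scaling. Plaur, the urokinase receptor, was called with shRictor (-1.80, adjusted p = 0.004; 0.0507 without shRictor replicate 2) and gave -0.99 with shDnajb9 (adjusted p = 0.0642, and 0.0291 with total-count scaling). The most abundant relative, Ly6e, had 664 and 701 CPM in shDnajb9 livers, against 489 and 504 CPM in lacZ1 livers, and 259 and 359.7 CPM in shRictor livers, against 339.5 and 443 CPM in lacZ2 livers, and passed in neither contrast (0.46, adjusted p = 0.297, and -0.34, adjusted p = 0.507).

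The remaining relatives passed in neither contrast with TMM, while Ly6a, Ly6c1 and Ly6c2 passed as lower with shRictor under total-count scaling (adjusted p = 0.0232, 0.0428 and 0.0426). Gpihbp1, the endothelial anchor of lipoprotein lipase, gave log2 fold changes of 0.93 with shDnajb9 and 0.07 with shRictor, and Ly6a, a stem cell and endothelial antigen, -0.21 and -1.0. Ly6c1 gave -0.04 and -2.21, Ly6c2 -0.83 and -1.37, Ly6i -1.99 and -2.33 and Cd59b 1.46 and 2.90. Among these, Ly6c1 and Ly6i passed the filter only through lacZ libraries and Cd59b only through hairpin libraries. Ly6a, Ly6c1, Ly6c2, Ly6i and Cd59b share sequence with close relatives or other genes (19%, 32.8%, 14.5%, 4.76% and 20.1% of their exonic 50-base stretches with other transcripts), so their counts are uncertain. Ly6k, Ly6g5b, Ly6g6d, Ly6g6e and Slurp1 were below the filter, with at most 12 counts in any library.

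**Figure D3:**
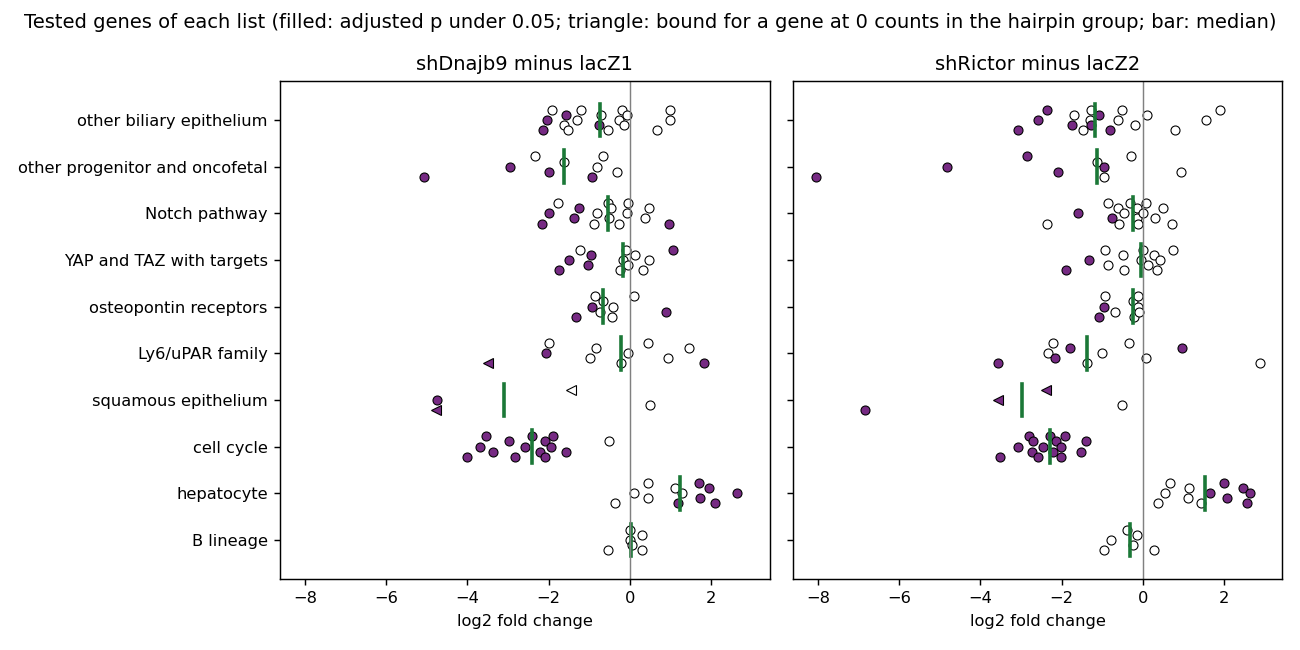
Log2 fold change (horizontal axis) of each tested gene of 10 lists (rows) with shDnajb9 on the left and shRictor on the right. Filled symbols have an adjusted p under 0.05, triangles are bounds for genes at 0 counts in the hairpin group, and green bars are list medians; the cell cycle genes lie left of 0 at medians of -2.41 and -2.30 and the hepatocyte genes right of it at medians of 1.23 and 1.55.

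The cell types that Ly6d is otherwise known from were also counted. Of 6 tested B lineage genes none was called in either contrast, and the summed level of the list was 13.6 and 16.1 CPM in shDnajb9 livers, against 14.1 and 15.0 CPM in lacZ1 livers, and 14.1 and 11.4 CPM in shRictor livers, against 17.0 and 17.5 CPM in lacZ2 livers. Of 11 squamous epithelial genes, the basal and suprabasal keratins Krt14, Krt15, Krt1 and Krt13 had no count in any library. Krt5, Krt10, Sprr1a and Ivl were tested, of which all but Krt10 passed the count filter only through lacZ libraries and so had to differ to be tested. Krt10 was called in neither contrast. With total-count scaling its log2 fold change was 0.10 with shDnajb9 and -0.93 with shRictor (adjusted p = 0.918 and 0.284 in edgeR's test). With bounds for genes at 0, the median log2 fold change of the tested genes was -3.11 with shDnajb9 and -2.98 with shRictor, set largely by the genes that had to differ. Sprr1a, a cornified envelope protein that is also induced in stressed cells, had 0 and 0 counts in shDnajb9 livers, against 66 and 54 in lacZ1 livers, and 2 and 1 counts in shRictor livers, against 299 and 72 in lacZ2 livers. It was at least 27.5-fold lower with shDnajb9 (adjusted p = 0.00548; up to 0.104 without either shDnajb9 library or lacZ1 replicate 1), and the shRictor adjusted p was 0.000752. Krt5 had 0 and 1 counts in shDnajb9 livers, against 32 and 15 in lacZ1 livers (adjusted p = 0.00719; 0.053 without lacZ1 replicate 1), and 0 and 0 counts in shRictor livers, against 26 and 13 in lacZ2 livers, at least 11.9-fold lower (adjusted p = 0.00334). Ivl was called with shRictor, with 0 and 0 counts, against 9 and 8 in lacZ2 livers (at least 5.2-fold lower, adjusted p = 0.0262; up to 0.128 without 1 library). The squamous and B lineage genes' part in the Ly6d values was not tested.

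The other cell types and states listed differed in how many of their genes were called. Of all genes, 12.6% were called lower and 11.6% higher with shDnajb9, and 10.9% lower and 7.31% higher with shRictor. Of 15 cell cycle genes, of mitosis and of DNA replication, 14 were called lower with shDnajb9 and 15 with shRictor. Their sum was 299 and 287 CPM in shDnajb9 livers, against 1096 and 1348 CPM in lacZ1 livers, and 202 and 254 CPM in shRictor livers, against 928 and 1026 CPM in lacZ2 livers. Tpx2, a spindle factor, had log2 fold changes of -3.55 and -2.81 (adjusted p = 3.81e-05 with shDnajb9 and 0.000119 with shRictor). Of 12 hepatocyte genes, 6 were called higher and none lower with each hairpin, among them Hpd, a tyrosine catabolic enzyme, at 2.64 and 2.66 (adjusted p = 0.00238 and 0.0024), and Hal, which breaks down histidine, at 1.94 and 2.47 (0.000793 and 0.00025).

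Stellate cell and fibroblast genes gave 6 lower and 2 higher of 14 with shDnajb9 and 3 lower and none higher with shRictor, and Col3a1 had log2 fold changes of -1.52 and -1.60 (adjusted p = 0.00192 and 0.00147). Of all genes, 12.6% were called lower and 11.6% higher with shDnajb9, and 10.9% lower with shRictor, so the 2 higher calls are near that share. Of 6 tested neutrophil genes, 5 were lower with shDnajb9 and 1 with shRictor, with a summed level of 1.26 and 1.03 CPM in shDnajb9 livers, against 27.6 and 7.87 CPM in lacZ1 livers, and the 4 with the smallest p lost their shDnajb9 calls without lacZ1 replicate 1. Each of these called neutrophil genes passed the count filter only through lacZ libraries. Of 10 T and NK cell genes, 1 was lower with shDnajb9 and 3 with shRictor. Of 10 endothelial genes, 1 was higher with shDnajb9 and none was called with shRictor. With shDnajb9 these single calls are below the 12.6% of all genes called lower and the 11.6% called higher. Mesothelial genes summed to at most 7.10 CPM in any library, and the single tested one, Lrrn4, was lower in both contrasts and also passed the filter only through lacZ libraries. Exocrine pancreas genes summed to 12.4 CPM in lacZ1 replicate 2 and to less than 5 CPM in the others, with no call, and of 3 tested erythroid genes 1 was higher and 1 lower in each contrast. The part of these cell types and states in the markers' values was not tested.

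Across the 8 libraries Ly6d's log2 CPM ran most closely with that of Prom1 among the markers (Pearson r = 0.914), then Cd24a (0.873), Spp1 (0.715), Afp (0.647) and Sox9 (0.569), with Krt19 at -0.06 and Epcam at -0.61. The closest pair among the markers was Cd24a and Prom1 at 0.982. These values are descriptions, since the libraries fall into hairpin and lacZ clusters. A gene clearly lower in the hairpin libraries gives a high value, and one clearly higher there a strongly negative value. Prom1's r was at the 93.7 percentile of all tested genes.

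The 10 genes most like Ly6d, at an average of at least 1 log2 CPM and with clone-based and predicted names left out, had r from 0.995 to 0.996 over the 8 libraries. They were Vat1, Golm1, Fchsd1, Palb2, Usp43, Cd63, Tagln2, Gpx2, Mob3a and Adam8, and each was lower in all 4 hairpin libraries than in all 4 lacZ libraries. Usp43 and Gpx2 passed the count filter only through lacZ libraries. Adam8, a membrane metalloprotease of leukocytes and injured epithelia, had 1.89 and 2.17 CPM in shDnajb9 livers, against 23.3 and 19.8 CPM in lacZ1 livers, and 2.24 and 2.74 CPM in shRictor livers, against 36.9 and 19.8 CPM in lacZ2 livers. Golm1, a Golgi membrane glycoprotein, had 9.64 and 8.79 CPM in shDnajb9 livers, against 48.4 and 48.4 CPM in lacZ1 livers, and 9.06 and 9.29 CPM in shRictor livers, against 57.5 and 49.4 CPM in lacZ2 livers. Both had close levels among the hairpin libraries, but the highest lacZ library, lacZ2 replicate 1, stood well above the others for Adam8 and only slightly for Golm1, and this likeness to Ly6d is what chose them. Gpx2, a glutathione peroxidase of the gut epithelium, had the lowest hairpin levels of the 10, with 0.210 and 0.114 CPM in shDnajb9 livers, against 3.46 and 3.34 CPM in lacZ1 livers, and 0.235 and 0.196 CPM in shRictor livers, against 4.88 and 3.13 CPM in lacZ2 livers. The levels of Mob3a and Golm1 are uncertain, since 57.9% and 28% of their exonic 50-base stretches are shared with genes on the other strand and the strand setting of the counting is not given.

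**Figure D4:**
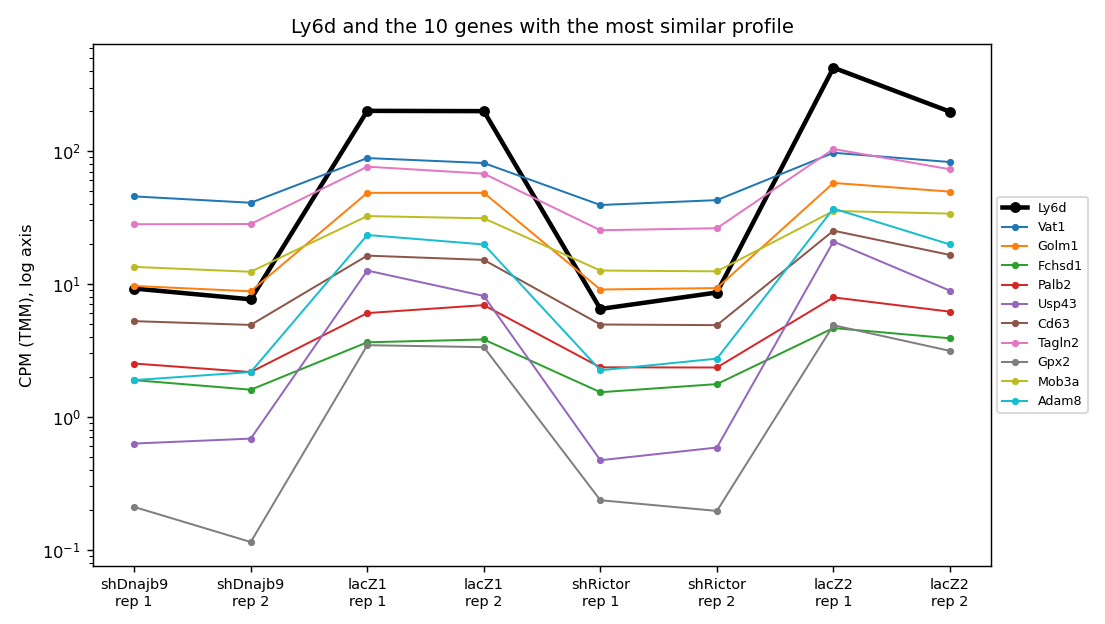
CPM after TMM scaling (vertical log axis) of Ly6d (thick black line) and the 10 genes with the highest correlation to it, in each of the 8 libraries along the horizontal axis. Lines only join the points of 1 gene; each of these genes is lower in the 4 hairpin libraries, and Ly6d has the widest span, between 6.47 and 423 CPM.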

How the data were processed

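RNA-seq of mouse liver was deposited as raw counts per gene, made by the authors from trimmed reads with cutadapt and HTSeq against mm10, per the submitters' processing notes; the aligner, annotation, strand setting and versions are not given in the sources used here. From 48.4% to 63.7% of each table's reads were in rows that name no gene and stayed out of library sizes and tests, and each library kept 6426164 to 11383532 gene counts. Groups came from the sample titles. Counts were tested with edgeR 4.0.16 (R 4.3.3): TMM scaling, a filter of 10 counts (1.06 CPM in 2 libraries), 4 group means over all 8 libraries, the robust quasi-likelihood test and Benjamini-Hochberg adjustment over 13767 of 24062 entries; it was tested on simulated data. The common biological coefficient of variation was 0.209 with 4 residual degrees of freedom. A standard error is the log2 fold change over the square root of F, and with 2 against 2 libraries an exact permutation test cannot go below 0.333. RPKM used GENCODE M21 exons. Same-group libraries differed by more than sampling noise (chi-square per degree of freedom 18.8 to 54.2). Floors of 3 counts and intervals cover counting or fitted error only.

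The members and gene lists were chosen with earlier results of these data known. Beside the members and the genes most like Ly6d, the text names up to 4 called genes with the smallest p from each list in each contrast and each Ly6/uPAR gene with 10 counts in all. Genes named beyond this (Jag1, Hes1, Nr5a2, Zbtb20, Zhx2, Clec4f, Vsig4, Krt10, Krt14, Krt15, Krt1, Krt13, Cftr, Sctr, Ehf, Ggt1, Muc1, Tspan8, Ncam1, Dlk1, Bex1, Igf2bp1, Igf2 and Slc17a8) were chosen after their values were seen. List medians can include tested genes that passed the count filter only through lacZ libraries. Alternatives were other scaling, filters, DESeq2 1.42.0, the 4 libraries of a contrast alone, a replicate block and leaving out libraries.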

Additional observations from a re-analysis of the deposited data

How the results depend on the processing

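Leaving out 1 library at a time, with a lone library assumed to vary like the other groups, gave 998 to 4142 called genes for shDnajb9 (3325 with all), 1053 to 1996 for shRictor (2508 with all), 0 to 19 for the difference between the hairpin effects (1 with all) and 0 to 1 for lacZ2 minus lacZ1 (0 with all). It gave 0 to 2 called markers for shDnajb9 (3 with all) and 0 to 3 for shRictor (2 with all). Log2 fold changes that changed sign in these fits, none of them called, ran from -0.61 to 0.12 for Afp, -0.11 to 0.48 for Epcam (-0.06 without lacZ1 replicate 2) and -0.14 to 1.18 for Krt19 with shDnajb9, and from -0.72 to 0.0048 for Krt19 and -0.50 to 0.32 for Sox9 (0.11 without shRictor replicate 1) with shRictor. Epcam with shDnajb9 was also -0.24 with total-count scaling, which moved the median of all genes to -0.46 with shDnajb9 and -0.42 with shRictor. Without shDnajb9 replicate 1 and lacZ2 replicate 1 together, 1675 genes were called for shDnajb9, 0 for the difference and 1 marker for shRictor (Spp1, while Cd24a and Prom1 lost their calls), and Sox9 with shRictor was 0.32. With no filter, 395 genes were called for the difference, 13 for lacZ2 minus lacZ1, 4 markers for shRictor and 1 for the difference, and DESeq2 called 45 genes for the difference, 1 for lacZ2 minus lacZ1 and 1 marker for shRictor. The fit of the 4 lacZ libraries alone called 1 gene for lacZ2 minus lacZ1 and gives no difference between hairpin effects, and the filter of 2 CPM drops Krt19 and Epcam. The cause of these shifts was not tested. Replicate numbers are shared by label only: same-numbered libraries' deviations correlated at -0.3 for shDnajb9 and lacZ1 and -0.0321 for shRictor and lacZ2, and the replicate block gave 3289 and 2470 calls for these contrasts, 3 for the difference and 0 for lacZ2 minus lacZ1, with the same number of called markers. Members with under 20 counts per library are limited by depth.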
